A study of Mus musculus with 4 samples.

Results

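The cells described here were LepR+ stromal cells of mouse tibial bone marrow that held little RNA of Ibsp, the gene for bone sialoprotein, a matrix protein of mineralising tissue. They numbered 883 of 19134 single-cell barcodes with at least 500 genes and at most 10% mitochondrial UMIs (unique molecular identifiers, each counting 1 captured RNA molecule). They were chosen by raw counts of 7 genes. Each had at least 20 UMIs of Cxcl12, at least 2 UMIs of Lepr, Adipoq and Lpl together, no UMI of Cdh5 or Ptprc, which mark endothelial and blood cells, and fewer than 20 Ibsp UMIs per 10000 UMIs of the cell. The same rule with 20 or more Ibsp UMIs per 10000 gave 1653 high-Ibsp LepR+ cells, to which the low-Ibsp cells are compared. Because these genes chose the cells, their values are given as a description only.

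The 4 libraries held 125 low-Ibsp cells from irradiated Vegfc-deleted mice, 378 from irradiated control mice, 124 from non-irradiated Vegfc-deleted mice and 256 from non-irradiated control mice. All mice were of the C57Bl/6JCrl strain and carried floxed Vegfc alleles on both chromosomes. Vegfc-deleted mice (RosaCreERT2;Vegfc flox/flox) also carried a tamoxifen-inducible Cre recombinase at Rosa26, a locus active in most cell types, so the deletion was not limited to stromal cells, and control mice (Vegfc flox/flox) carried no Cre. Mice received 5 intragastric doses of tamoxifen at 7 to 8 weeks of age. One passage of the labels names tamoxifen for samples 1 to 3 and another for both genotypes. A dose of 4 Gy was given to the whole body of irradiated mice 2 weeks after tamoxifen and were sampled 7 days after irradiation. Each irradiated library pooled 2 mice, although 3 irradiated mice per genotype are also named, and each non-irradiated library pooled 3 mice. An antibody to VE-cadherin was injected into the blood before sampling. Marrow was flushed from the tibia, treated with the enzymes dispase II, collagenase I and DNase I, and sorted for viable cells negative for Ter119, CD45 and other lineage markers.

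LepR+ stromal cells, also called CXCL12-abundant reticular cells, lie around the marrow sinusoids and are the main source in adult marrow of the chemokine CXCL12 and of stem cell factor, which retain and maintain haematopoietic stem cells. They include precursors of marrow adipocytes and of osteoblasts, and genes of both fates are detected in them before differentiation. Total body irradiation depletes blood cells and sinusoidal vessels, and marrow fat typically expands while blood formation recovers.

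With 1 library per condition there were no biological replicates, so no test of irradiation or genotype was made. Values are sums of UMIs over the low-Ibsp cells of a library per 1000000 UMIs of those cells (CPM). All intervals are exact 95% intervals for counting error alone, without differences between animals or preparations. The low-Ibsp cells held 1157166 UMIs in the irradiated Vegfc-deleted library, 4016296 in the irradiated control, 1273354 in the non-irradiated Vegfc-deleted and 2539167 in the non-irradiated control library, with medians of 7607, 9766, 8962 and 8494 UMIs per cell in that order. The libraries shared 216 barcodes over all pairs, 117 of them between the non-irradiated libraries, and no barcode of a low-Ibsp cell was shared. RNA of red blood cells stood apart between the libraries. The summed level of 8 erythroid markers in low-Ibsp cells was 8268 CPM in irradiated Vegfc-deleted and 8715 CPM in irradiated control cells, against 43294 CPM in non-irradiated Vegfc-deleted and 61026 CPM in non-irradiated control cells. More than 1% of UMIs came from markers of haematopoietic cells in 2 irradiated Vegfc-deleted and 11 irradiated control cells, against 24 non-irradiated Vegfc-deleted and 98 non-irradiated control cells. Without those cells the erythroid sums were 404 CPM and 607 CPM in irradiated Vegfc-deleted and control cells, against 3137 CPM and 4272 CPM in non-irradiated Vegfc-deleted and control cells. Results that moved by over 1.5-fold without these cells, or without the 1 barcode with the most UMIs of a gene, are given with that value.

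The cells carried the defining markers of LepR+ stroma. Chrdl1, which encodes a secreted BMP antagonist and was not used to choose them, was at 1047 CPM in irradiated Vegfc-deleted and 1378 CPM in irradiated control cells, and at 640.0 CPM in non-irradiated Vegfc-deleted and 783 CPM in non-irradiated control cells. In all other barcodes of the same libraries it was at 12.6, 52.4, 98.8 and 178 CPM in the same order. Of the genes in the rule, Cxcl12 was at 16100 CPM in irradiated Vegfc-deleted, 20345 CPM in irradiated control, 14535 CPM in non-irradiated Vegfc-deleted and 17268 CPM in non-irradiated control cells. Lepr, the leptin receptor, was at 972, 1463, 1087 and 1157 CPM in the same order, and neither gene separated irradiated from non-irradiated cells. Summed endothelial markers stayed at 6.28 to 38.3 CPM, with Flt4 and Tek at 0 in both Vegfc-deleted libraries. Markers of mature adipocytes (Plin1, Cidec, Plin4, Adrb3 and Car3) summed to 1899 CPM in irradiated Vegfc-deleted and 1226 CPM in irradiated control cells, against 231 CPM in non-irradiated Vegfc-deleted and 14.2 CPM in non-irradiated control cells. Car3 gave most of these sums in 3 libraries and Adrb3, at 10.6 CPM, in non-irradiated control cells, and Plin1, Cidec and Plin4 were at 0 in non-irradiated control cells.

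The low-Ibsp cells made up most LepR+ stroma after irradiation and a minority without it. They were 82.8% (75.8 to 88.4) of LepR+ cells in the irradiated Vegfc-deleted library and 86.9% (83.4 to 89.9) in the irradiated control library. In the non-irradiated libraries they were 17.1% (14.4 to 20.02) in Vegfc-deleted and 20.9% (18.7 to 23.3) in control mice. Since Ibsp chose the cells, these shares describe the rule's own measure. As a share of all barcodes past the filter, low-Ibsp cells were 2.95% (2.46 to 3.503) of the irradiated Vegfc-deleted and 9.51% (8.61 to 10.5) of the irradiated control library, against 2.24% (1.87 to 2.66) of the non-irradiated Vegfc-deleted and 4.76% (4.203 to 5.36) of the non-irradiated control library. LepR+ cells of both kinds were 3.56% and 10.9% of the irradiated Vegfc-deleted and irradiated control libraries, against 13.1% and 22.7% of the non-irradiated Vegfc-deleted and non-irradiated control libraries. High-Ibsp cells thus numbered 26 and 57 in irradiated Vegfc-deleted and irradiated control libraries, against 602 and 968 in the non-irradiated ones. A lower Ibsp level per cell and a different recovery of cells during digestion and sorting cannot be told apart here.

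Ibsp also differed inside the low-Ibsp cells. No Ibsp UMI was found in 72.8% of irradiated Vegfc-deleted cells and 56.3% of irradiated control cells, against 33.9% of non-irradiated Vegfc-deleted and 26.2% of non-irradiated control cells. The medians were 0 Ibsp UMIs per 10000 in both irradiated libraries, against 3.97 in the non-irradiated Vegfc-deleted and 6.20 in the non-irradiated control library. Just inside the limit, from 15 to under 20 per 10000, lay 4 irradiated Vegfc-deleted, 11 irradiated control, 24 non-irradiated Vegfc-deleted and 59 non-irradiated control cells. Just outside it, from 20 to under 25, lay 5, 13, 33 and 48 cells in the same order. There was no gap in the distribution at 20, and a limit of 40 would take in 91.4% and 93.6% of LepR+ cells in the irradiated Vegfc-deleted and control libraries, against 31.4% and 38.6% in the non-irradiated ones.

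**Figure D1:**
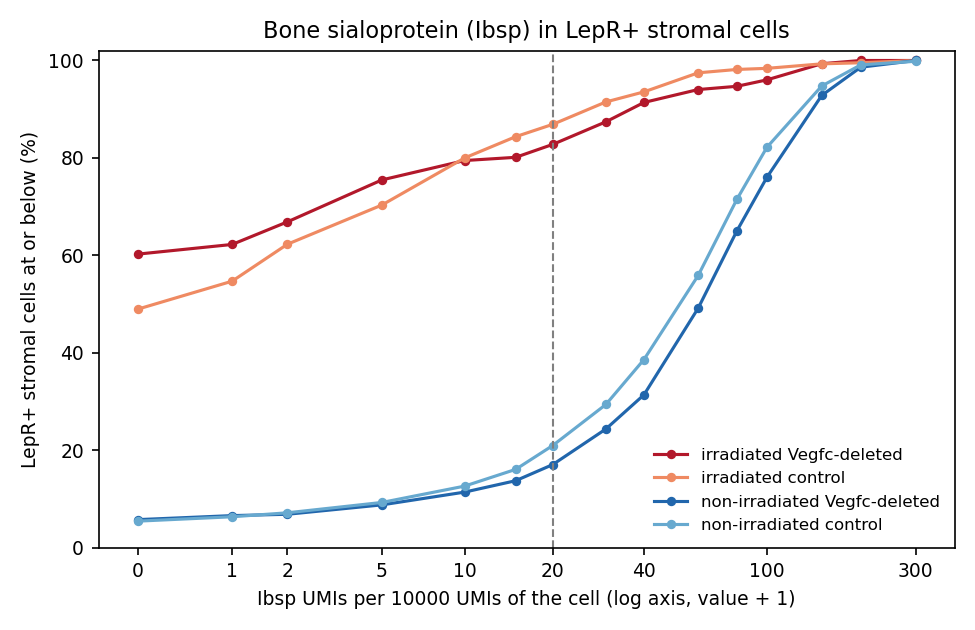
The cumulative percent of LepR+ stromal cells (y axis) at or below a given number of Ibsp UMIs per 10000 UMIs of the cell (x axis) is drawn as 1 line per library, and the dashed line marks the limit of 20. At this limit, cells exactly at it included, the lines stand at 82.8% in irradiated Vegfc-deleted, 86.9% in irradiated control, 17.1% in non-irradiated Vegfc-deleted and 20.997% in non-irradiated control cells.

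The low-Ibsp and high-Ibsp cells of a library were next set side by side, as a description of what the Ibsp limit divides. Of 3417 genes counted, 34 (0.995%) were at least 1.5-fold higher and 15 (0.439%) at least 1.5-fold lower in low-Ibsp cells of all 4 libraries. Erythroid RNA differed between the cells compared. Its markers summed to 8268 CPM in low-Ibsp and 184 CPM in high-Ibsp cells of the irradiated Vegfc-deleted library, 8715 and 745 CPM in the irradiated control, 43294 and 19634 CPM in the non-irradiated Vegfc-deleted and 61026 and 18484 CPM in the non-irradiated control library. Leaving out markers of blood cells and genes low in these cells, 8 genes were named in each direction by the smallest difference over the libraries, of which 3 higher and 4 lower ones were 1.5-fold in all 4. The highest were Prkar2b, a regulatory subunit of protein kinase A, with log2 ratios of 0.64 to 1.49, Grina with 0.61 to 1.11, and Itih5, a hyaluronan-binding protein of the matrix, with 0.60 to 1.03. Fzd4, a Wnt receptor, followed with 0.54 to 1.64, and then Ppm1g, Bola3, Abhd5, a co-activator of triglyceride breakdown, and Emb. Directions turned for 3 of these. With cells thinned, Prkar2b had -0.11 in non-irradiated Vegfc-deleted and Abhd5 -0.15 in irradiated Vegfc-deleted cells, and Ppm1g had -0.44 in non-irradiated control cells without an Ibsp UMI. The lowest was Igfbp5, an insulin-like growth factor-binding protein of bone, with log2 ratios of -1.51 in the irradiated Vegfc-deleted, -0.90 in the irradiated control, -1.41 in the non-irradiated Vegfc-deleted and -1.54 in the non-irradiated control library. Abi3bp, a matrix protein (-0.91 to -0.68), and Nrp2, a co-receptor for VEGF-C and semaphorins (-1.96 to -0.63), came next, followed by Lmo7, Pcolce, which aids procollagen processing, Cst3, Serpine2 and the chemokine scavenger Ackr4. Without cells that held over 1% haematopoietic marker UMIs, 10 of all genes counted were higher and 8 lower in all libraries.

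In all 4 libraries the CPM of Fabp4 was higher and that of Igfbp5 lower in low-Ibsp cells without an Ibsp UMI than in high-Ibsp cells. Without irradiation, Fabp4 was at background in low-Ibsp cells thinned to equal depth. A UMI was found in 9.24% of Vegfc-deleted and 6.85% of control cells, against 8.59% and 10.4% of erythroid barcodes. Of non-irradiated cells without Ibsp, 36 of 42 Vegfc-deleted and 39 of 67 control cells held at most 1% haematopoietic marker UMIs. The part of single barcodes and of RNA from other cells in these Fabp4 values was not tested. In irradiated control cells, Fabp4, which encodes the adipocyte fatty acid-binding protein, was at 2967 CPM in the 213 cells without Ibsp, 2476 CPM in the 93 cells above 0 and under 5 per 10000, 775 CPM in the 72 cells from 5 to under 20, and 222 CPM in the 57 high-Ibsp cells. In irradiated Vegfc-deleted cells it was at 6294, 6296, 560.5 and 676 CPM over the same ranges, which held 91, 23, 11 and 26 cells. The non-irradiated control cells had a lower and shallower gradient of 267, 166, 46.7 and 49.9 CPM. Igfbp5 increased over the ranges, with 1522, 1936, 2849 and 3466.5 CPM in irradiated control cells and 1488, 2408, 3482 and 8218 CPM in non-irradiated control cells. Wisp2, a secreted protein of the CCN family, was at 13.9, 22.0, 61.2 and 84.4 CPM in irradiated control cells and 78.2, 104, 214 and 537 CPM in non-irradiated control cells. In irradiated Vegfc-deleted cells Wisp2 had no even gradient, at 12.3, 173 and 64.3 CPM over the low-Ibsp ranges. Non-irradiated Vegfc-deleted cells did not follow an even gradient, with Fabp4 at 871, 3.20, 108 and 50.3 CPM, the second range holding 22 cells. Other genes of the adipocyte lineage and of matrix did not follow these orders. Adipoq was at 3014, 3224, 4245 and 4320 CPM in irradiated Vegfc-deleted cells and 2613, 3239, 3230 and 2930 CPM in irradiated control cells, and Mgp was at 238, 166, 138 and 81.3 CPM in irradiated control cells. Cells within a library are not replicates, and these gradients are not independent of the rule.

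**Figure D2:**
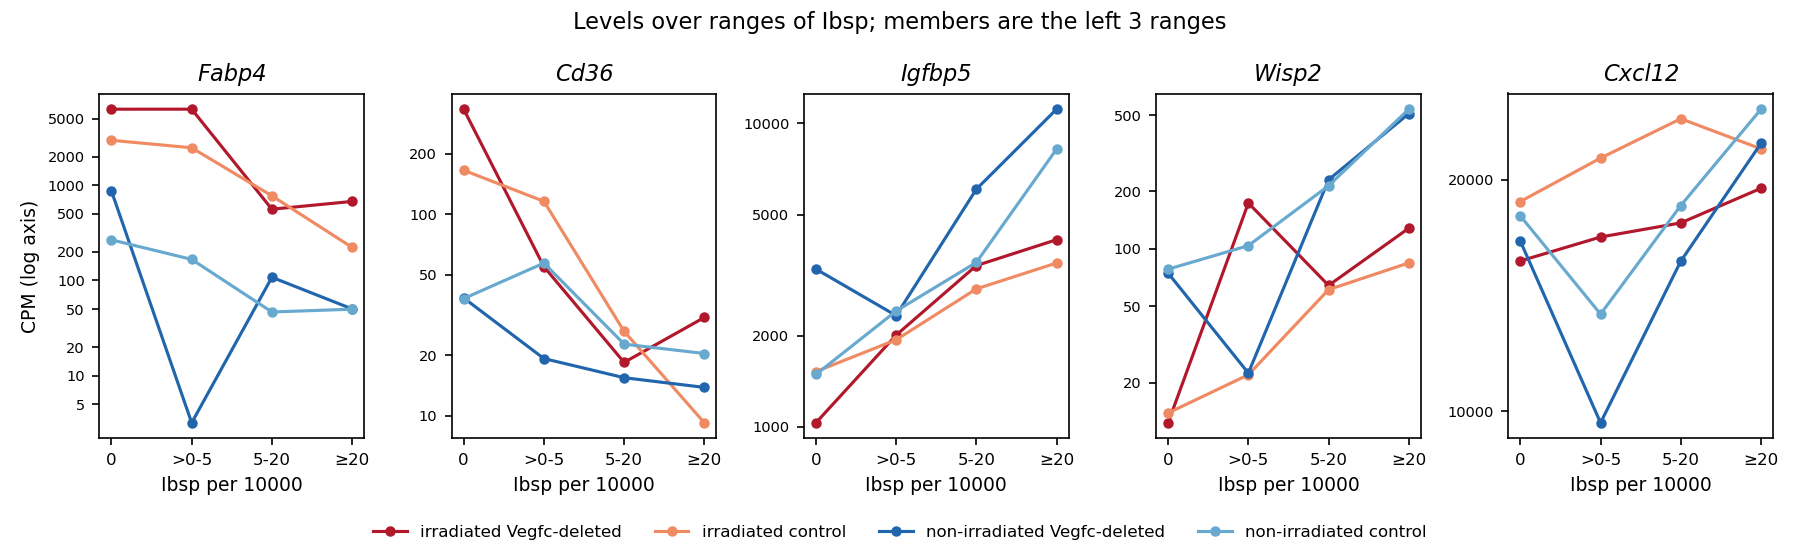
CPM (y axis, log scale) of 5 genes is plotted over 4 ranges of Ibsp UMIs per 10000 (x axis), with 1 line per library. Fabp4 and Cd36 are lower in the ranges from 5 upward than at 0 in the irradiated libraries, Igfbp5 and Wisp2 increase towards high Ibsp in the control libraries, and Cxcl12 stays between 9663 and 24701 CPM.

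The main comparison asked how low-Ibsp LepR+ cells differed 7 days after irradiation. Levels of fatty acid-binding and other lipid genes, p53 targets, interferon-induced genes and the niche factors Angpt1 and Il7 were higher in irradiated cells of both genotypes. Immediate early genes, inflammatory genes and the bone-associated genes Mgp, Wif1 and Wisp2 were lower. Summed markers of osteolineage cells were lower in irradiated Vegfc-deleted cells and higher in irradiated control cells. Of 3444 genes with a mean of at least 50 CPM over the libraries, 555 (16.1%) were at least 1.5-fold higher and 387 (11.2%) at least 1.5-fold lower in irradiated Vegfc-deleted than in non-irradiated Vegfc-deleted cells. In control mice 649 (18.8%) were higher and 345 (10.0%) lower in irradiated cells. In both genotypes 329 (9.55%) were higher and 229 (6.65%) lower. The median log2 ratio of all counted genes was 0.14 in Vegfc-deleted and 0.18 in control cells, and TMM scaling moved every ratio by -0.15 in Vegfc-deleted and -0.24 in control cells. With TMM the counts were 351 higher and 528 lower in Vegfc-deleted, and 309 higher and 595 lower in control cells, so which direction held more genes depended on the scaling. A gene could pass the level filter through 1 or more libraries in which it was high, so counts over all genes and over lists are a description.

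Of the genes with the greatest irradiated over non-irradiated ratio in both genotypes, Adamts15, a secreted proteoglycan-cleaving protease, was at 196 CPM in irradiated Vegfc-deleted and 213 CPM in irradiated control cells. It was at 15.7 CPM in non-irradiated Vegfc-deleted and 18.9 CPM in non-irradiated control cells, which gave log2 ratios of 3.61 (2.98 to 4.38) in Vegfc-deleted and 3.48 (3.08 to 3.95) in control cells. Npr3, the clearance receptor of natriuretic peptides, had 153 and 155 CPM in irradiated Vegfc-deleted and control cells against 10.2 and 16.5 CPM in non-irradiated Vegfc-deleted and control cells. Both genes stood between 9.29-fold and 14.5-fold above the non-irradiated library of their genotype. Sort1, the sorting receptor sortilin, had log2 ratios of 2.53 and 2.54 in Vegfc-deleted and control cells, and Tmem178 2.27 and 2.38. Fam213b, which encodes a prostaglandin F synthase, had 2.53 and 2.20 in Vegfc-deleted and control cells. Adipor2, an adiponectin receptor, was at 354 and 273 CPM in irradiated Vegfc-deleted and control cells against 77.0 and 52.8 CPM in non-irradiated Vegfc-deleted and control cells. Tagln, an actin-binding protein of smooth muscle and pericytes, was at 354 and 73.5 CPM in irradiated Vegfc-deleted and control cells against 7.07 and 12.2 CPM in non-irradiated ones. The 6 markers of pericytes and smooth muscle, of which Tagln is 1, summed to 567 and 201 CPM in irradiated Vegfc-deleted and control cells against 18.1 and 45.7 CPM in non-irradiated Vegfc-deleted and control cells. Their part in the Tagln result, which had log2 ratios of 5.57 and 2.57 in Vegfc-deleted and control cells and 4.90 and 2.07 without the leading barcodes, was not tested.

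Among the genes lowest relative to non-irradiated cells, Gm26532, a non-coding RNA, had log2 ratios of -4.04 in Vegfc-deleted and -2.67 in control cells, and Fam46c, a poly(A) polymerase also expressed in blood cells, -2.18 and -2.54, or -3.58 and -1.86 without cells over 1% haematopoietic marker UMIs. Kit, the receptor of stem cell factor, was at 50.1 and 12.9 CPM in irradiated Vegfc-deleted and control cells against 276 and 222 CPM in non-irradiated ones. Its log2 ratios were -2.45 and -4.09 in Vegfc-deleted and control cells, and -2.60 and -4.36 without cells over 1% haematopoietic marker UMIs. Kit is not among those markers, and a part of blood cell RNA in this result was not tested. Atf3, a stress-induced transcription factor, had 1 UMI in irradiated Vegfc-deleted cells and was at 21.2 CPM in irradiated control cells, against 177 and 178 CPM in non-irradiated Vegfc-deleted and control cells. Ier3, an immediate early gene, was also among the lowest by this rule, with a log2 ratio of -2.31 in the genotype nearer to 0. So were Wif1, Nfkbia, Mgp and Cxcl1, which are taken up with their groups.

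Of 27 genes for lipid uptake and droplets, 12 passed the level filter. In irradiated Vegfc-deleted cells 9 (75%) were 1.5-fold higher and 1 (8.33%) lower (median log2 ratio 1.19), beside 16.1% and 11.2% of all counted genes. In irradiated control cells 9 (75%) were higher and 0 lower (median 1.06), beside 18.8% and 10.0%. TMM scaling left 8 of 12 higher in each genotype. Some members, among them Fabp5 and Cd36, passed the level filter only through the irradiated libraries, so these counts and medians are a description. The 1 lower gene in Vegfc-deleted cells was Cfd, which was among the 9 higher in control cells. Almost all its UMIs in non-irradiated Vegfc-deleted cells came from 1 barcode, and it passed the level filter only through that barcode. Higher in both genotypes were Fabp4, Fabp5, Cd36, Car3, Scd1, Acaca and Bscl2. Fabp4 was at 5755 CPM in irradiated Vegfc-deleted and 2459 CPM in irradiated control cells, against 347 CPM in non-irradiated Vegfc-deleted and 119 CPM in non-irradiated control cells. The log2 ratios were 4.05 (3.91 to 4.19) in Vegfc-deleted and 4.37 (4.21 to 4.54) in control cells. Without the leading barcode of each library they were 4.83 and 4.68, without cells over 1% haematopoietic marker UMIs 3.80 and 3.98, and with only the cells that had no Ibsp UMI 2.85 and 3.47, so the difference was also present among cells without an Ibsp UMI.

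Fabp4 was spread over many cells after irradiation. A UMI was found in 61.6% of irradiated Vegfc-deleted and 73.5% of irradiated control cells, against 20.2% of non-irradiated Vegfc-deleted and 16.8% of non-irradiated control cells. At an equal depth of 2000 UMIs per cell, these shares were 48.7% and 53.6% in irradiated Vegfc-deleted and control cells, and 9.24% and 6.85% in non-irradiated Vegfc-deleted and control cells. Erythroid barcodes, which should lack the gene, gave 5.85%, 14.8%, 8.59% and 10.4% at that depth in irradiated Vegfc-deleted, irradiated control, non-irradiated Vegfc-deleted and non-irradiated control libraries. The non-irradiated shares were therefore at background and the irradiated shares above it. All other barcodes, among which endothelial cells are known to express the gene, held 2827 and 6530.0 CPM in irradiated Vegfc-deleted and control libraries against 907 and 747 CPM in non-irradiated ones.

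Cd36, a fatty acid transporter, was at 247 and 128 CPM in irradiated Vegfc-deleted and control cells against 24.3 and 33.5 CPM in non-irradiated Vegfc-deleted and control cells. Its log2 ratios were 3.32 and 1.93 in Vegfc-deleted and control cells, and 4.13 and 3.97 without cells over 1% haematopoietic marker UMIs. Car3, a carbonic anhydrase of adipocytes and muscle, was at 1759 and 1142 CPM in irradiated Vegfc-deleted and control cells against 173 and 3.54 CPM in non-irradiated Vegfc-deleted and control cells. One barcode held 87.7% of the Car3 UMIs of non-irradiated Vegfc-deleted cells, and without the leading barcode of each library the log2 ratio was 5.96 in Vegfc-deleted and 8.24 in control cells. Fabp5, a second fatty acid-binding protein, was at 924 and 174 CPM in irradiated Vegfc-deleted and control cells against 5.50 and 20.5 CPM in non-irradiated ones. Scd1, a fatty acid desaturase, had smaller log2 ratios of 1.24 and 0.93 in Vegfc-deleted and control cells. Of 12 adipogenic transcription factors 4 were counted. In irradiated Vegfc-deleted cells 1 (25%) was higher and 2 (50%) lower (median log2 ratio -0.73), beside 16.1% and 11.2% of all counted genes. In irradiated control cells 2 (50%) were higher and 2 (50%) lower (median -0.15), beside 18.8% and 10.0%. Pparg, the transcription factor that directs adipocyte formation, was at 199 and 165 CPM in irradiated Vegfc-deleted and control cells against 49.5 and 60.3 CPM in non-irradiated Vegfc-deleted and control cells. Cebpb, a factor of early adipocyte differentiation, ran the other way, with log2 ratios of -2.25 and -1.30 in Vegfc-deleted and control cells, as did Cebpd, with -1.89 and -1.41. Of the rule's own genes, Lpl, the lipoprotein lipase, was at 10041 and 10270 CPM in irradiated Vegfc-deleted and control cells against 2659 and 2411 CPM in non-irradiated ones, and the adipokine gene Adipoq at 3172 and 2889 CPM against 1457 and 1056 CPM.

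Irradiated cells with a Fabp4 UMI at equal depth also held more RNA of other lipid genes than cells without one. In the irradiated Vegfc-deleted library, with 55 such cells against 58, the log2 ratio was 2.93 for Car3, 2.98 for Cd36, 3.67 for Fabp5 and 4.16 (2.53 to 7.56) for Scd1, which had 2 UMIs in cells without Fabp4. In the irradiated control library, with 193 cells against 167, it was 3.45 for Car3, 3.06 for Cd36, 1.13 for Fabp5 and 2.42 for Scd1. The log2 ratios of Cxcl12, Lepr, Angpt1 and the p53 target Ccng1 lay between -0.13 and 0.25 in these libraries, with a wide interval for Ccng1 in irradiated Vegfc-deleted cells (-1.21 to 0.99). Other genes differed between these cells, not all of them in both libraries. Kitl had -0.42 and -0.05 and Ifit1 -0.78 and -0.42 in irradiated Vegfc-deleted and control cells. Col1a1, a bone collagen, had -0.94 and -0.65, and Mgp -0.04 and 1.32, in the same order. Pparg had -0.19 in irradiated Vegfc-deleted and 0.65 in irradiated control cells.

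**Figure D3:**
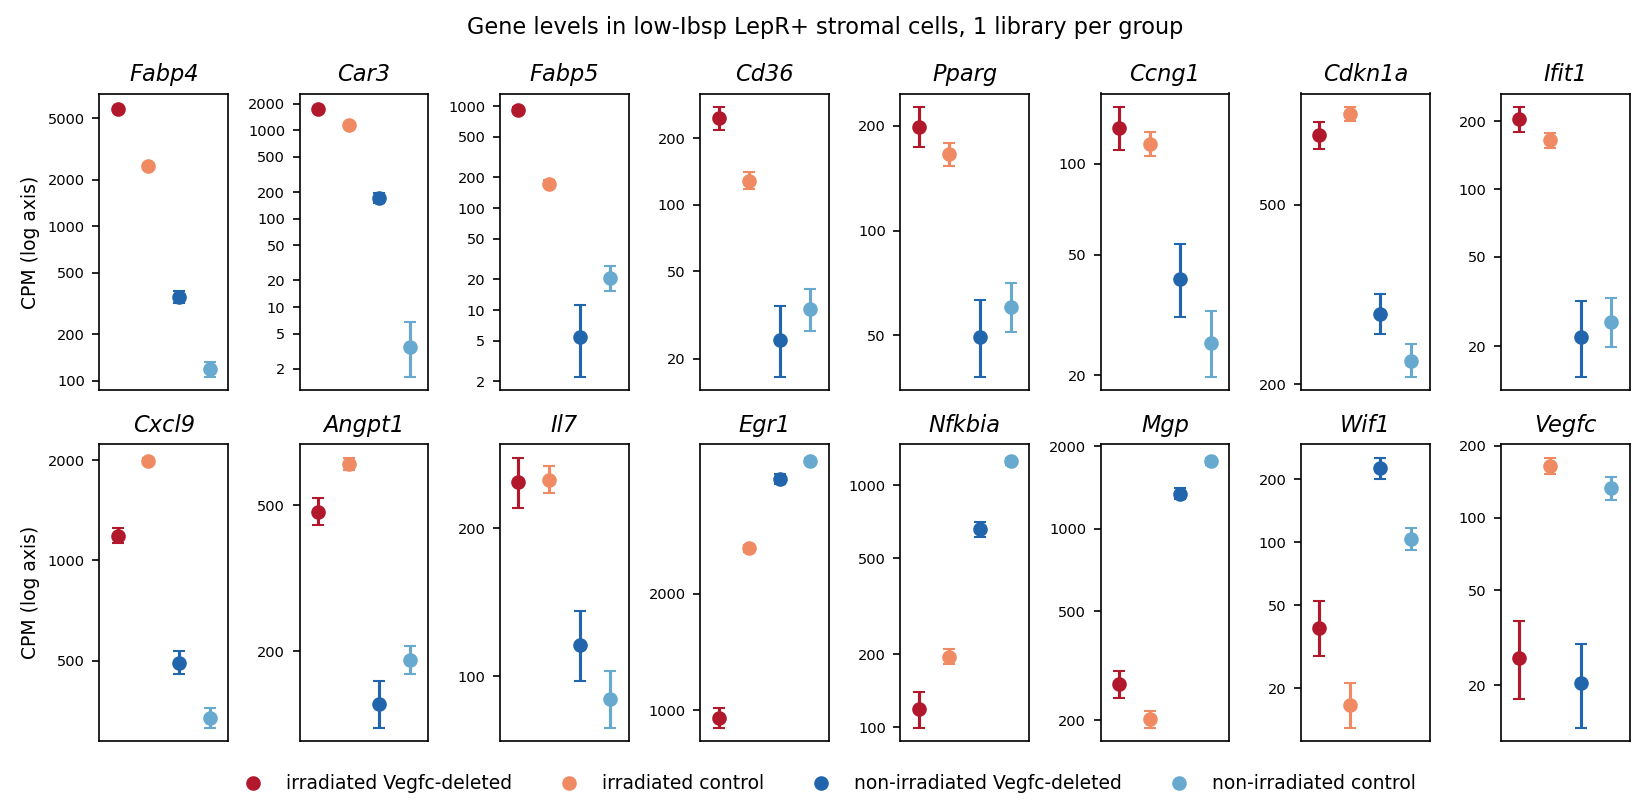
CPM in low-Ibsp LepR+ cells (y axis, log scale) is shown for 16 genes in each library, with bars for the exact 95% Poisson interval. The irradiated values of Fabp4, Car3, Fabp5, Cd36, Pparg, Ccng1, Cdkn1a, Ifit1, Cxcl9, Angpt1 and Il7 lie above the non-irradiated value of the same genotype, those of Egr1, Nfkbia, Mgp and Wif1 below it, and Vegfc separates the genotypes.

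Targets of p53, the transcription factor activated by DNA damage, were higher in irradiated cells. Of 24 genes on this list, 10 passed the level filter. In irradiated Vegfc-deleted cells 6 (60%) were higher and 2 (20%) lower (median log2 ratio 1.14), beside 16.1% and 11.2% of all counted genes. In irradiated control cells 9 (90%) were higher and 0 lower (median 1.20), beside 18.8% and 10.0%. Cdkn1a, the cell cycle inhibitor p21, was at 712 and 795 CPM in irradiated Vegfc-deleted and control cells against 287 and 226 CPM in non-irradiated Vegfc-deleted and control cells. Ccng1, cyclin G1, was at 131 and 117 CPM in irradiated Vegfc-deleted and control cells against 41.6 and 25.6 CPM in non-irradiated ones, log2 ratios of 1.65 and 2.18. Phlda3, an inhibitor of Akt, Trp53inp1, an autophagy factor, the pro-apoptotic gene Bax and Ei24 were likewise higher in both genotypes, with log2 ratios from 0.85 to 2.09. Mdm2, the p53 inhibitor, had 0.32 in Vegfc-deleted and 1.17 in control cells. Gdf15, a stress cytokine, had -2.48 in Vegfc-deleted and 0.70 in control cells, and Btg2 -0.81 and -0.42. The median of the list was 0.87 in Vegfc-deleted and 1.36 in control cells when only cells without an Ibsp UMI were taken.

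Of 22 interferon response genes, 21 were found in the files and 14 passed the level filter. In irradiated Vegfc-deleted cells 9 were higher and 1 lower (median log2 ratio 1.12), and in irradiated control cells 11 were higher and 1 lower (median 1.16). Among the genes higher in both genotypes were Ifit1, Isg15, Irf7, Stat2, Oasl2, Bst2, Cxcl9 and Cxcl10. Ifit1, an RNA-binding antiviral protein, was at 204 and 165 CPM in irradiated Vegfc-deleted and control cells against 22.0 and 25.6 CPM in non-irradiated Vegfc-deleted and control cells. Cxcl9, a chemokine for T cells, was at 1187 and 1988 CPM in irradiated Vegfc-deleted and control cells against 493 and 337 CPM in non-irradiated Vegfc-deleted and control cells. Its partner Cxcl10 had log2 ratios of 1.51 and 2.22 in Vegfc-deleted and control cells, but -0.47 in Vegfc-deleted cells without the barcodes of highest doublet score, and 1 barcode held 39.8% of its UMIs in irradiated Vegfc-deleted cells. Irf1, induced by interferon gamma and by inflammatory signals, was lower, at 103 and 211 CPM in irradiated Vegfc-deleted and control cells against 439.8 and 426 CPM in non-irradiated ones. Of 14 genes of MHC class I presentation counted, 5 (35.7%) were higher and 1 (7.14%) lower in irradiated cells of each genotype. Of all counted genes, 16.1% and 18.8% were higher and 11.2% and 10.0% lower in Vegfc-deleted and control cells. Tap1, Psmb9, Psme1 and Psme2, which make or load peptides, were 1.5-fold higher in both genotypes, with log2 ratios from 0.62 to 1.48, and H2-Q4 was lower in both. In control cells TMM scaling left 2 of the 14 higher.

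Interferon-stimulated genes carry a promoter element to which the ISGF3 complex binds. Its core, GAAA followed by any 2 bases and a second GAAA (TTTC, any 2 bases and TTTC on the other strand), was sought on both strands in RefSeq promoters of the GRCm38.p6 assembly, each spanning 250 bases before to 50 after the annotated start. It was found in 11 of 18 list genes in that table (61.1%), in 5 of 8 of those higher in both genotypes (62.5%), and in 1079 of 27025 genes overall (3.99%). Promoters of 4 genes are shown to set the element beside the genes that were higher, written 5′ to 3′ on the strand of the gene, with matches in capitals. Ifit1 (chr19:34640639-34640938, plus strand) holds 2 matches, Cxcl10 (chr5:92348840-92349139, minus strand) 1, Bst2 (chr8:71537423-71537722, minus strand) 2 that overlap, and Stat2 (chr10:128270248-128270547, plus strand) 1.
Ifit1: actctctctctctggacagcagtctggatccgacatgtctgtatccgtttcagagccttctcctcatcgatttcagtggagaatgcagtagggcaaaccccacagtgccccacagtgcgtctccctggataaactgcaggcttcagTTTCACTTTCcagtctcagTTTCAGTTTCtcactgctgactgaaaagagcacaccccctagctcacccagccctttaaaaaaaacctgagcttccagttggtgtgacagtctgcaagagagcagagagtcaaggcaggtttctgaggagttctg
Cxcl10: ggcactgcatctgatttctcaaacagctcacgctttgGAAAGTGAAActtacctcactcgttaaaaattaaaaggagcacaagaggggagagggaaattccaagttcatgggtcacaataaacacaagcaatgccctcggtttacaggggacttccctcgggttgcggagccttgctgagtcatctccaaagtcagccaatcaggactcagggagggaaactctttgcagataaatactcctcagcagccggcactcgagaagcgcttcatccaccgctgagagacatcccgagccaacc
Bst2: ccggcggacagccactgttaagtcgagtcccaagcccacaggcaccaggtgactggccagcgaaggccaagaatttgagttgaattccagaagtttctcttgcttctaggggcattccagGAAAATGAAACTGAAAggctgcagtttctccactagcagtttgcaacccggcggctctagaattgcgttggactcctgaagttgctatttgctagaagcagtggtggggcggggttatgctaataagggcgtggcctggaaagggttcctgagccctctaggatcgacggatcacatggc
Stat2: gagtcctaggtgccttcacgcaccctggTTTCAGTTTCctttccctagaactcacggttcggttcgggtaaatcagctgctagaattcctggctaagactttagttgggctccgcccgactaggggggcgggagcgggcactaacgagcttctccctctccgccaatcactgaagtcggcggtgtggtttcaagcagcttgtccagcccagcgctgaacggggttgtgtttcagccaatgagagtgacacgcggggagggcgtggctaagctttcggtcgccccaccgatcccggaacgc
In Ifit1 the matches begin 104 and 85 bases before the start, in Cxcl10 213, in Bst2 130 and 124, and in Stat2 222. Isg15 held 3 matches, and the letters were not in the windows of Irf7, Oasl2 and Cxcl9. A match describes the letters and not the binding of a factor.

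Of 20 factors that LepR+ cells supply to blood cells and vessels, 17 passed the level filter. In irradiated Vegfc-deleted cells 6 (35.3%) were higher and 2 (11.8%) lower (median log2 ratio 0.42), beside 16.1% and 11.2% of all counted genes. In irradiated control cells 8 (47.1%) were higher and 3 (17.6%) lower (median 0.50), beside 18.8% and 10.0%. TMM scaling left 5 and 6 higher. Angpt1, the ligand of the endothelial and stem cell receptor Tie2, was at 480.5 CPM in irradiated Vegfc-deleted and 649 CPM in irradiated control cells, against 144 CPM in non-irradiated Vegfc-deleted and 189 CPM in non-irradiated control cells. The log2 ratios were 1.74 (1.498 to 1.99) in Vegfc-deleted and 1.77 (1.64 to 1.92) in control cells, and at equal depth a UMI was found in 59.3% and 64.2% of irradiated Vegfc-deleted and control cells against 22.7% and 26.2% of non-irradiated ones. Il7, the cytokine of B cell precursors, was at 248 and 251 CPM in irradiated Vegfc-deleted and control cells against 115 and 89.8 CPM in non-irradiated Vegfc-deleted and control cells. Il15, a cytokine of natural killer cells, and Jag1, a Notch ligand, were also higher in both genotypes, with log2 ratios of 1.12 and 1.36 for Il15 and 0.94 and 0.94 for Jag1. Kitl, stem cell factor, differed less, at 1765 and 2426 CPM in irradiated Vegfc-deleted and control cells against 1327 and 1610.0 CPM in non-irradiated ones. Csf1 had log2 ratios of 0.54 and 0.78, and the adhesion molecule Vcam1 0.58 and 0.94, in Vegfc-deleted and control cells. Lower in both genotypes were Vegfa with log2 ratios of -1.17 and -0.60 and the chemokine Cxcl14 with -1.43 and -1.46 in Vegfc-deleted and control cells.

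Of 20 osteogenic genes, 13 passed the level filter. The Ibsp limit kept 82.8% and 86.9% of LepR+ cells in irradiated Vegfc-deleted and control libraries against 17.1% and 20.9% in non-irradiated ones. Ibsp is itself a bone gene, and the part of this limit in the ratios below was not tested. In irradiated Vegfc-deleted cells 1 (7.69%) was higher and 6 (46.2%) lower (median log2 ratio -0.51), beside 16.1% and 11.2% of all counted genes. In irradiated control cells 2 (15.4%) were higher and 5 (38.5%) lower (median -0.33), beside 18.8% and 10.0%. Mgp, matrix Gla protein, an inhibitor of calcification, was at 270.3 and 201 CPM in irradiated Vegfc-deleted and control cells against 1342 and 1764 CPM in non-irradiated Vegfc-deleted and control cells. One barcode held 50.5% of the Mgp UMIs of irradiated Vegfc-deleted cells, and without the leading barcode of each library the log2 ratios were -3.07 and -3.30. At equal depth 16.8% and 5.56% of irradiated Vegfc-deleted and control cells held an Mgp UMI, against 44.5% and 50.8% of non-irradiated ones. Wif1, a secreted Wnt inhibitor, had log2 ratios of -2.53 and -2.63 in Vegfc-deleted and control cells. Wisp2 had -1.31 and -2.74, and Dlx5, a transcription factor of osteoblasts, -0.83 and -0.63. Spp1, osteopontin, was at 1984 and 1247 CPM in irradiated Vegfc-deleted and control cells against 2822 and 2906 CPM in non-irradiated ones. Runx2, the master regulator of osteoblasts, had -0.46 and -0.33, less than 1.5-fold. Col1a2, with 0.62 and 0.77, was the 1 gene of the list higher in both genotypes, and it was under 1.5-fold with TMM. Igfbp5 had -1.53 in Vegfc-deleted and -0.61 in control cells, but 0.03 in control cells that held no Ibsp UMI. The 6 markers of osteolineage cells (Bglap, Bglap2, Dmp1, Col1a1, Sp7 and Phex) summed to 615 and 547 CPM in irradiated Vegfc-deleted and control cells. In non-irradiated Vegfc-deleted and control cells they summed to 805 and 415 CPM.

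Immediate early genes, which are switched on within minutes by growth factors and stress and also by tissue digestion, were lower in irradiated cells. Of 18 that passed the filter, 18 (100%) were lower in irradiated Vegfc-deleted cells (median log2 ratio -2.40), beside 11.2% of all counted genes. In irradiated control cells 15 (83.3%) were lower (median -1.25), beside 10.0%, and none was higher in either genotype. Fos was at 1193 and 3564 CPM in irradiated Vegfc-deleted and control cells against 5840.5 and 6199 CPM in non-irradiated Vegfc-deleted and control cells. Egr1 was at 958 and 2623 CPM in irradiated Vegfc-deleted and control cells against 3959 and 4413 CPM in non-irradiated ones. In all other barcodes Fos was at 593 and 1579 CPM in irradiated Vegfc-deleted and control libraries against 1289.8 and 1865 CPM in non-irradiated Vegfc-deleted and control libraries. Fos was thus lowest in the irradiated Vegfc-deleted library in other barcodes as well, and differences in digestion between libraries cannot be told apart from those of irradiation. Of 7 inflammatory genes counted, Nfkbia, which encodes the inhibitor of NF-κB, Nfkbiz, Tnfaip3, Icam1 and the neutrophil chemokine gene Cxcl1 were lower in both genotypes. The share lower in both was 6.65% over all counted genes. Nfkbia was at 118 and 195 CPM in irradiated Vegfc-deleted and control cells against 657 and 1256 CPM in non-irradiated Vegfc-deleted and control cells. Cxcl1 was at 26.8 and 75.7 CPM in irradiated Vegfc-deleted and control cells against 155 and 334 CPM in non-irradiated ones, log2 ratios of -2.52 and -2.14, and -3.50 in Vegfc-deleted cells without the leading barcode of each library. Markers of neutrophils summed to 902 and 144 CPM in irradiated Vegfc-deleted and control cells against 364 and 129 CPM in non-irradiated ones, and their part was not tested.

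Further groups are given by their counts. Of all counted genes, 16.1% were higher and 11.2% lower in irradiated Vegfc-deleted cells, and 18.8% higher and 10.0% lower in irradiated control cells. Of 23 extracellular matrix genes, Col4a1, Col4a2, Col5a1, Col5a2, Fn1 and Adamts5 were higher and Fbln1 lower in both genotypes, beside 7 higher and 5 lower in Vegfc-deleted and 6 higher and 1 lower in control cells. Col4a1, a basement membrane collagen, was at 1212 and 1008 CPM in irradiated Vegfc-deleted and control cells against 518 and 503 CPM in non-irradiated Vegfc-deleted and control cells. Fn1, fibronectin, was at 434 and 59.5 CPM in irradiated Vegfc-deleted and control cells against 22.0 and 7.09 CPM in non-irradiated ones. Of 10 genes of the IGF and growth hormone axis, the growth hormone receptor Ghr had log2 ratios of 1.41 and 1.37 and Igfbp3 0.84 and 0.78, while Socs3, a feedback inhibitor of cytokine signalling, had -2.13 and -1.34, in Vegfc-deleted and control cells. Ldha, Ndrg1 and Vegfa, of 7 glycolysis and hypoxia genes, were lower in both genotypes, of 4 lower in irradiated Vegfc-deleted and 6 lower in irradiated control cells. Of 14 TGF-beta and BMP genes, Id1, a BMP target, was higher in both, with 1.00 and 1.56, and Skil and Grem1 were lower in both. Of 6 cell cycle genes counted, all were lower in irradiated cells, but 3 passed the level filter without cells over 1% haematopoietic marker UMIs, of which 2 were lower in each genotype. The list median in Vegfc-deleted cells was -1.65, but 0.40 without the highest Scrublet scores and 1.17 with no Ibsp UMI and little haematopoietic RNA.

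**Figure D4:**
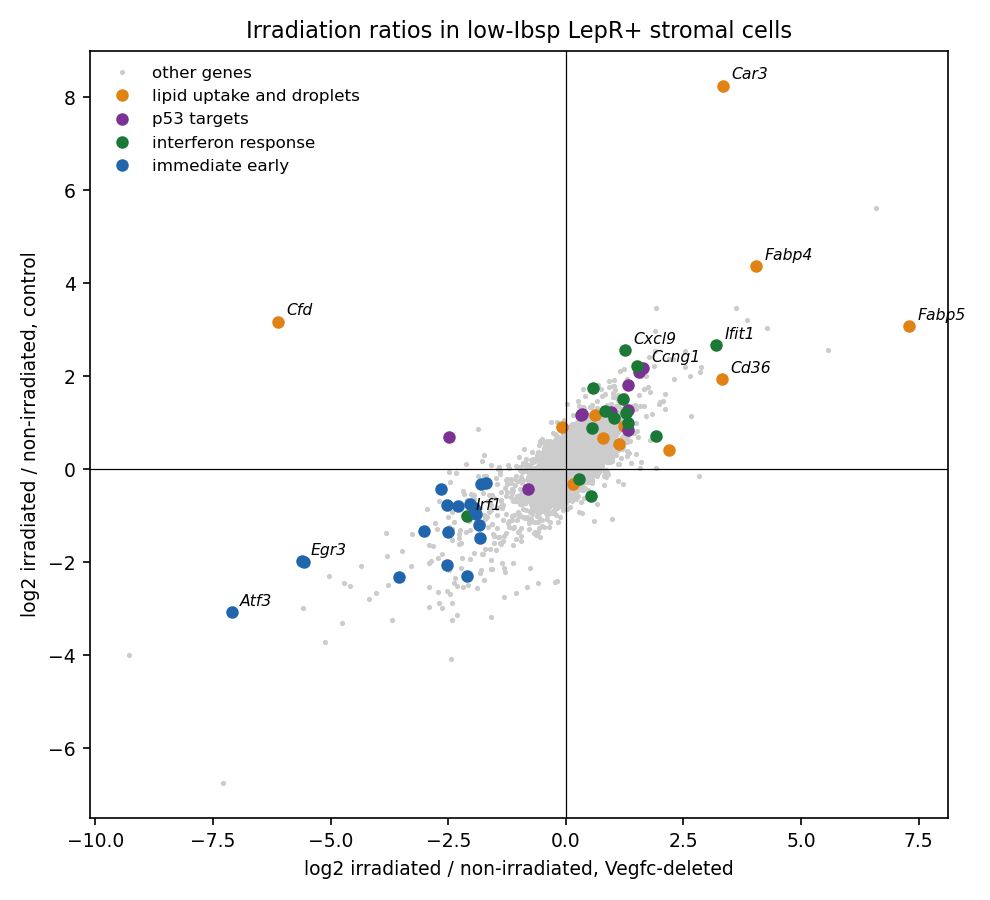
Each point is a gene, placed by its log2 ratio of irradiated over non-irradiated low-Ibsp cells in Vegfc-deleted (x axis) and control mice (y axis), with genes of 4 lists in colour over all 3444 counted genes in grey. Lipid, p53 and interferon genes lie mostly in the upper right and immediate early genes in the lower left.

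The same irradiated over non-irradiated ratios were read in the high-Ibsp LepR+ cells, which come from the same libraries and numbered only 26 and 57 after irradiation in Vegfc-deleted and control mice. Ccng1 had log2 ratios of 2.44 and 1.97, Ifit1 2.08 and 2.44, and Angpt1 1.09 and 1.13 in high-Ibsp Vegfc-deleted and control cells. Nfkbia had -2.43 and -2.37. These 4 genes went the same way as in low-Ibsp cells. Pparg had 0.07 and 0.40 in high-Ibsp Vegfc-deleted and control cells, against 2.00 and 1.45 in low-Ibsp ones, and Cd36 had 1.26 and -1.03, against 3.32 and 1.93. A Cd36 UMI was also found in 10.9% to 24.7% of erythroid barcodes at equal depth. Erythroid markers in high-Ibsp Vegfc-deleted and control cells summed to 184 and 745 CPM after irradiation against 19634 and 18484 CPM without it. Their part in the Cd36 ratios was not tested. Wif1 had 0.50 and 0.25 in high-Ibsp cells and Spp1 0.74 and 0.81, whereas both were lower in irradiated low-Ibsp cells. Fabp4 had 3.75 and 2.16, against 4.05 and 4.37. Whether these differences between low-Ibsp and high-Ibsp cells exceed the spread between mice was not tested.

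The last comparison set Vegfc-deleted beside control cells, within irradiated and within non-irradiated mice. Vegfc, the gene for a growth factor of lymphatic and blood vessels that signals through VEGFR3 and VEGFR2 (ENSMUSG00000031520, chr8:54077606-54187096, plus strand, GRCm38), was lower in Vegfc-deleted cells. It had 30 UMIs or 25.9 CPM in irradiated Vegfc-deleted cells against 663 UMIs or 165 CPM in irradiated control cells. In non-irradiated cells it had 26 UMIs or 20.4 CPM in Vegfc-deleted against 337 UMIs or 133 CPM in control cells. The log2 ratios of Vegfc-deleted over control were -2.65 (-3.25 to -2.14) with irradiation and -2.68 (-3.34 to -2.12) without. A UMI was found in 11.2% of irradiated Vegfc-deleted against 62.7% of irradiated control cells, and in 8.06% of non-irradiated Vegfc-deleted against 56.2% of non-irradiated control cells. The labels do not say which exons were floxed, so 3′ counts need not lie in the deleted part. Within a genotype, the irradiated level was 1.27-fold the non-irradiated one in Vegfc-deleted and 1.24-fold in control cells.

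Beyond Vegfc, a part of the genes that differed did so in the same direction with and without irradiation. In irradiated cells 287 of 3444 genes (8.33%) were at least 1.5-fold higher and 266 (7.72%) lower in Vegfc-deleted than in control cells. In non-irradiated cells 106 (3.08%) were higher and 70 (2.03%) lower. In both settings 25 (0.726%) were higher, of the 287 and 106 above, and 28 (0.813%) lower, of the 266 and 70. Of the genes higher in both by the greatest margin, the collagen gene Col6a3 was at 145 CPM in irradiated Vegfc-deleted against 52.8 CPM in irradiated control cells, and at 128 CPM in non-irradiated Vegfc-deleted against 55.5 CPM in non-irradiated control cells. Mpp6, a scaffold protein, had log2 ratios of 1.28 with and 1.73 without irradiation, the second being 1.02 without the leading barcodes. Col3a1 had 0.80 and 1.01, Ccdc80, a secreted matrix protein, 0.84 and 0.90, and Mrap, a melanocortin receptor accessory protein expressed in adipocytes, 0.76 and 1.54. Scd1 had 1.77 with and 1.46 without irradiation, but 1 barcode held 50% of its UMIs in irradiated Vegfc-deleted cells, and without the leading barcodes the ratios were 1.05 and 1.04.

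Igfbp3, which binds insulin-like growth factors, was the lowest after Vegfc, at 110.1 CPM in irradiated Vegfc-deleted against 249.2 CPM in irradiated control cells, and at 61.3 CPM in non-irradiated Vegfc-deleted against 145 CPM in non-irradiated control cells. Cxcl1 had log2 ratios of -1.48 with and -1.10 without irradiation, the first being -2.42 without the leading barcodes. Serpina3n, an acute-phase protease inhibitor, had -1.09 and -0.94, Ier5l -1.09 and -0.93, and Dusp6, a phosphatase that limits ERK signalling, -0.87 and -0.83. In non-irradiated cells without an Ibsp UMI, Serpina3n had 0.02.  Of 12 lipid genes, 8 (66.7%) were higher and 0 lower in irradiated Vegfc-deleted than in irradiated control cells (median log2 ratio 0.88). Over all counted genes the shares were 8.33% and 7.72%. In non-irradiated cells 4 (33.3%) were higher and 1 (8.33%) lower (median 0.30), beside 3.08% and 2.03%. The 4 were Fabp4, Scd1, Car3 and Cfd, and in non-irradiated Vegfc-deleted cells 1 barcode held 87.7% of the Car3 and 94.8% of the Cfd UMIs. With all cells at 2000 UMIs the median of the irradiated comparison was 0.40. Fabp4 had 1.23 with and 1.55 without irradiation, or 0.98 and 0.83 without the leading barcodes, and -0.31 without irradiation once the barcodes of highest doublet score were left out.

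Immediate early genes differed between the genotypes in irradiated cells, with 16 of 18 lower in irradiated Vegfc-deleted than in irradiated control cells (median log2 ratio -1.43), against 2 lower and 1 higher of 18 in non-irradiated cells (median -0.02). The difference between these comparisons was not tested. Of 13 osteogenic genes 6 were higher and 0 lower with irradiation (median 0.48), and 4 higher and 0 lower without (median 0.34). Of 17 niche factors 1 was higher and 2 lower with irradiation (median -0.37) and 0 higher and 2 lower without (median -0.07), and Vegfc was the 1 niche factor lower in both. Kitl had log2 ratios of -0.46 with and -0.28 without irradiation, Csf1 -0.45 and -0.21, and Angpt1 -0.43 and -0.40, all less than 1.5-fold. Of 10 p53 targets 0 were higher and 4 lower with irradiation and 2 higher and 0 lower without, and of 14 interferon genes 2 were higher and 3 lower with and 1 higher and 1 lower without. Over all genes the shares were 8.33% higher and 7.72% lower with irradiation and 3.08% and 2.03% without. Several list shares lay above these, some of them resting on few genes. With irradiation, 88.9% of immediate early genes and 40% of p53 targets were lower, and 66.7% of lipid and 46.2% of osteogenic genes higher. Without irradiation, 30.8% of osteogenic genes and 2 of 10 p53 targets (20%) were higher and 2 of 17 niche factors (11.8%) lower.

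**Figure D5:**
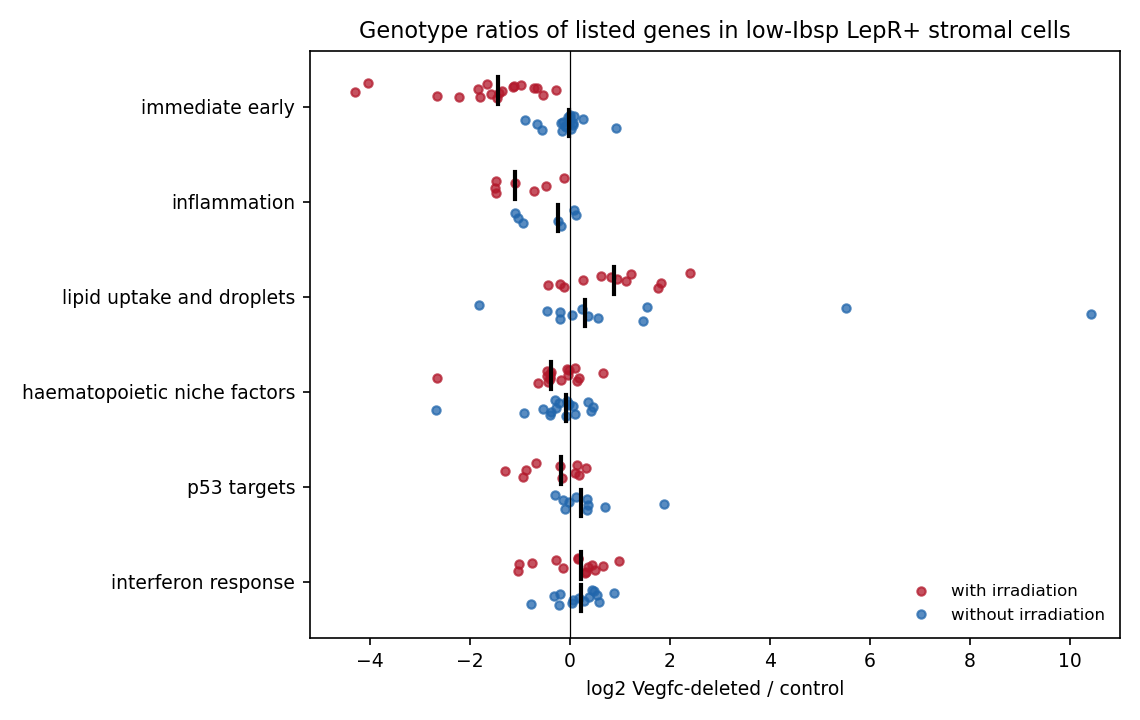
Each point is a gene of 6 lists, placed by its log2 ratio of Vegfc-deleted over control low-Ibsp cells with and without irradiation, and bars mark the list medians. Immediate early genes centre on -1.43 with irradiation and -0.02 without it, lipid genes on 0.88 and 0.30, and Vegfc lies at -2.65 and -2.68.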

How the data were processed

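Libraries were made with the 10x Chromium 3′ v3.1 kit and sequenced on an Illumina NovaSeq instrument, per the labels' protocols. The authors deposited raw UMI counts per gene and barcode, without normalization, for 31053 features per library. The build was mm10 and the tool Cell Ranger 2.1.1 per the submitters' processing notes, but software 3.1.0 per the file headers. The annotation release and the strand setting were not given in the sources used here.

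From these counts, barcodes with under 500 genes or over 10% mitochondrial UMIs were left out, and low-Ibsp LepR+ cells were chosen by the limits given above. Doublets were kept in the main results, and leaving out the highest Scrublet scores (scanpy 1.11.5, 0.8% of barcodes per 1000 barcodes) was an alternative, which removed 4 irradiated Vegfc-deleted, 31 irradiated control, 17 non-irradiated Vegfc-deleted and 24 non-irradiated control cells. UMIs were summed per library, and log2 ratios used a prior of 0.5 counts. Genes with a mean of at least 50 CPM over the 4 libraries were counted, without mitochondrial genes and the 7 genes of the rule, and a 1.5-fold ratio was the limit for calling a gene higher or lower. Equal depth means each cell thinned to 2000 UMIs, leaving out 12 irradiated Vegfc-deleted, 18 irradiated control, 5 non-irradiated Vegfc-deleted and 8 non-irradiated control cells. Erythroid barcodes had at least 20 haemoglobin UMIs and no Cxcl12 UMI. Intervals were Clopper-Pearson for shares, Poisson for CPM and conditional binomial for ratios. A count of 0 in the low-Ibsp cells allowed up to 2.59 CPM in irradiated Vegfc-deleted, 0.747 CPM in irradiated control, 2.36 CPM in non-irradiated Vegfc-deleted and 1.18 CPM in non-irradiated control cells. TMM factors came from edgeR 4.0.16 in R 4.3.3, and other steps ran in Python 3.11.15 with numpy 2.4.6, scipy 1.17.1 and pandas 2.3.3. The counting of genes was tested on simulated data.

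Named genes were the 10 highest and 10 lowest for irradiation, the 6 highest and 6 lowest for genotype and the 8 highest and 8 lowest for Ibsp, by the ratio nearest to 0 over the comparisons, among genes with at least 50 CPM and at least 20 cells with a UMI where higher, and at least 0.5 times the CPM of all other barcodes there, leaving out mitochondrial, ribosomal protein and haematopoietic marker genes. Members of 19 gene lists were added, and some genes that meet these rules are not reported here. The cells and lists were chosen with earlier results of these data known, so no list is independent support for its direction.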

Additional observations from a re-analysis of the deposited data

Results flagged for a closer look

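For Fabp5 and Nr4a1 the Vegfc-deleted over control ratio pointed in opposite directions with and without irradiation. Fabp5 had a log2 ratio of 2.41 in irradiated cells, at 924 CPM in Vegfc-deleted and 174 CPM in control cells, and of -1.81 in non-irradiated cells, at 5.50 CPM in Vegfc-deleted and 20.5 CPM in control cells. Nr4a1, an immediate early gene, had -2.65 in irradiated cells, at 9.51 CPM in Vegfc-deleted and 62.2 CPM in control cells, and 0.92 in non-irradiated cells, at 470.4 CPM in Vegfc-deleted and 249.3 CPM in control cells. Gdf15, a stress cytokine, had an irradiated over non-irradiated ratio of -2.48 in Vegfc-deleted cells, at 19.01 CPM in irradiated and 108 CPM in non-irradiated cells, and of 0.70 in control cells, at 47.6 CPM in irradiated and 29.1 CPM in non-irradiated cells. Each rests on 1 library per condition, and the difference was not tested.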

How the results depend on the processing

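No paired analysis was possible because each group has 1 library, so the groups compared share fewer than 2 replicate numbers, and leaving out a library would remove its group. The alternatives that took only cells with 0 Ibsp UMIs, the same with at most 1% haematopoietic marker UMIs, and cells up to 3 times the median UMIs were chosen after seeing the data. The cause was not tested for any value below. Of ratios of single genes 4248 stayed within their counting interval, 1450 left it and 14 reversed, and of list medians 1323 moved by less than the 1.5-fold limit, 41 by more and 4 reversed.

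Genes higher in irradiated Vegfc-deleted cells (555) were 351 with TMM, 356 with median-of-ratios factors, 4128 with no level filter and 119 at 200 CPM, and genes lower (387) were 3415 with no filter and 111 at 200 CPM. In control cells genes higher (649) were 309, 317, 5196 and 128 under the first 4 settings in that order, and genes lower (345) were 595, 579, 3552 and 127. For Vegfc-deleted over control with irradiation, genes higher (287) were 2620 with no filter, 105 at 200 CPM and 166 without the deepest cells, and genes lower (266) were 2654 with no filter and 63 at 200 CPM. Without irradiation, genes higher (106) were 2588 with no filter, 14 at 200 CPM, 181 with cells weighted equally, 374 with thinned cells, 202 with Ibsp under 10, 63 with Ibsp under 40, 173 with Cxcl12 of at least 10, 440 with no Ibsp UMI, 332 with no Ibsp UMI and little haematopoietic RNA, and 186 without the deepest cells. Genes lower (70) were 3241 with no filter, 8 at 200 CPM, 122 with equal weights, 272 thinned, 118 with Ibsp under 10, 249 with no Ibsp UMI and 288 with no Ibsp UMI and little haematopoietic RNA.

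Genes higher in low-Ibsp than high-Ibsp cells of all libraries (34) were 211 with no filter, 8 at 200 CPM, 16 with equal weights, 16 thinned, 17 with a prior of 5, 12 without the highest Scrublet scores, 10 without cells over 1% haematopoietic marker UMIs and 14 without the deepest cells. Genes lower (15) were 163, 5 and 9 under the first 3 of these, 7 without the highest Scrublet scores, 8 without haematopoietic RNA, 26 with no Ibsp UMI, 30 with no Ibsp UMI and little haematopoietic RNA, and 8 without the deepest cells. The low-Ibsp share of LepR+ cells became 91.4% in irradiated Vegfc-deleted with Ibsp under 40, and 80% and 93.6% in irradiated control with Ibsp under 10 and 40. It became 11.4%, 31.4%, 20.2% and 13.4% in non-irradiated Vegfc-deleted with Ibsp under 10 and 40 and Cxcl12 of at least 10 and 40. In non-irradiated control it became 12.7%, 38.6% and 17.4% with Ibsp under 10 and 40 and Cxcl12 of at least 40, 15.8% without haematopoietic RNA, and 16.3% with at least 1000 genes and at most 5% mitochondrial UMIs.

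Reversals were as follows. The median of adipogenic transcription factors for irradiation in Vegfc-deleted cells was 0.31 with no filter and with members of at least 10 summed UMIs, and that of cell cycle genes 0.40 without the highest Scrublet scores and 1.17 with no Ibsp UMI and little haematopoietic RNA. Cxcl10 for irradiation in Vegfc-deleted cells was -0.47 and Fabp4 for genotype without irradiation -0.31 without the highest Scrublet scores. Igfbp5 for irradiation in control cells was 0.031 with no Ibsp UMI and 0.15 also with little haematopoietic RNA, and for genotype without irradiation Wif1 was -0.16 and -0.32 in those settings. Serpina3n for genotype without irradiation was 0.024 with no Ibsp UMI. Car3 for genotype with irradiation was -0.054 without the deepest cells. For low over high Ibsp, Prkar2b was -0.11 in non-irradiated Vegfc-deleted and Abhd5 -0.15 in irradiated Vegfc-deleted cells after thinning. Ppm1g in non-irradiated control cells was -0.050 without the highest Scrublet scores, -0.44 with no Ibsp UMI, -0.32 also with little haematopoietic RNA, and -0.11 without the deepest cells.

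The 125 irradiated Vegfc-deleted and 124 non-irradiated Vegfc-deleted cells set the precision for low genes, where single barcodes held much of some sums.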

Other observations

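Cfd, the adipocyte protease adipsin, was at 11.2 CPM in irradiated Vegfc-deleted and 5.23 CPM in irradiated control cells, and at 812 CPM in non-irradiated Vegfc-deleted and 0.394 CPM in non-irradiated control cells. One barcode held 94.8% of its UMIs in the non-irradiated Vegfc-deleted library. Its place among the lipid genes counted and in the plots of irradiation and genotype ratios rests on that barcode.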
